A study of Mus musculus with 6 samples.

Results

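The arrays of mProx24 cells that received high glucose were set against those that did not. mProx24 is a proximal tubular cell line derived from C57B6 mouse kidney. It was grown in Dulbecco's medium with fetal calf serum and profiled on 1-colour Agilent arrays for mouse miRNAs with 1 array per condition. Grouped by the titles of the samples, 3 of the 6 arrays of the series carried high glucose. They were the High glucose array (20% oxygen), the Triple stimuli array (high glucose with 150 µM palmitate for 9 h and 1% oxygen for 12 h) and the Triple stimuli + Rapamycin array, which also received 0.4 µg/ml rapamycin, a drug that inhibits mTORC1. The other 3 arrays were High FFAs (150 µM palmitate for 9 h at 20% oxygen), Hypoxia (1% oxygen for 12 h) and Control (20% oxygen). Palmitate was given bound to 0.15% albumin, the labels of the cultures without it carry PBS, and the sources used here do not state the glucose concentration.

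The 3 arrays of a side were different treatments and not repeats of 1 culture, so the spread within a side held the effects of oxygen, palmitate and rapamycin. Palmitate was present on 2 of the 3 arrays with high glucose and on 1 of the 3 without, and 1% oxygen likewise on 2 and on 1. Rapamycin was present only on the side with high glucose. The deposited records also disagree about 2 arrays. The High glucose column of the authors' deposited value table equalled the scanner file deposited as High FFAs for 70.9% of 206 miRNAs, its High FFAs column equalled the scanner file deposited as High glucose for 70.6% of 228, and neither column equalled its own scanner file for any miRNA. The names below follow the scanner files. If the table's names are the right ones, the 3 arrays called here "with high glucose" are the 3 arrays with palmitate, and the 3 called "without" are the 3 without palmitate. The fit with those labels exchanged, and the fit that leaves both arrays out, are therefore given for the called miRNAs.

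miRNAs are RNAs of about the length printed here that guide Argonaute proteins to messenger RNAs, mainly by pairing of the seed, bases 2 to 8 from the 5′ end, and they lower the output of the targets. Each is cut from a hairpin precursor whose 2 arms give the 5p and the 3p product. In proximal tubule, whose cells take glucose back from the filtrate, miRNAs such as miR-21, miR-29, miR-192 and the miR-30 family have been studied for their part in the response to diabetes, in fibrosis and in tubular identity.

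The design held probes for 1247 miRNAs. Signal above background was found for 198 of them somewhere in the series and for 154 on all 6 arrays, and these 154 were tested. The sequences below carry the results that follow. The first 6 are those of the highest differences for which RefSeq held a mature sequence (build GRCm38.p6), the next 5 are the other miRNAs called higher, the next 2 those called lower, and the following 3 the remaining members of the lowest 5 differences. The last 3 were detected on every array with high glucose and on none without. Capitals mark the seed.
miR-5126: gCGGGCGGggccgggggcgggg
miR-2861: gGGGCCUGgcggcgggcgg
miR-3102-5p: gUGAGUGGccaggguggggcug
miR-6538: cGCGGGCUccggggcggcg
miR-211-3p: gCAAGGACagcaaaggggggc
miR-2137: gCCGGCGGgagccccagggag
miR-125a-3p: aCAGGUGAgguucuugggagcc
miR-1895: cCCCCGAGgaggacgaggagga
miR-3081-5p: gACUGGAGcuuggagcggugagc
miR-1224-5p: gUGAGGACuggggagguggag
miR-3473e: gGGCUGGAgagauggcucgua
miR-181b-5p: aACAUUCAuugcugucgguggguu
miR-196b-5p: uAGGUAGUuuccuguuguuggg
miR-99b-3p: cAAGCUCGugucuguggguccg
miR-615-3p: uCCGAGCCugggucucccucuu
miR-301a-3p: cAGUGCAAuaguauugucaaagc
miR-149-3p: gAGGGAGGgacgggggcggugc
miR-680: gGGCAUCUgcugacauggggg
miR-721: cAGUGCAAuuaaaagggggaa

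No seed was shared among the called miRNAs shown. The seed AGUGCAA was common to miR-301a-3p and miR-721.

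Before scaling, the arrays with high glucose were brighter. The 75th percentile of intensity was 360 on the High glucose array, 346 on Triple stimuli and 382 on Triple stimuli + Rapamycin, against 295 on Control, 318 on High FFAs and 335 on Hypoxia. The number of miRNAs detected was 189, 183 and 193 on the 3 arrays with high glucose and 164, 162 and 172 on Control, High FFAs and Hypoxia. Neither measure overlapped between the sides. The mean number detected was 188.3 ± 5.03 with high glucose and 166 ± 5.29 without (SD, n = 3 each; exact two-sided permutation test, p = 0.10, the smallest p that 3 against 3 allows). The 4 spike-in controls, which do not come from the cells, had ratios of the side with high glucose to the side without of 0.973 to 1.006. All 6 arrays lay on 1 slide and came from 1 scan. Row 1 of the slide held the arrays at 20% oxygen and row 2 those at 1%, so row and oxygen cannot be told apart. Column 1 of the slide held only arrays without high glucose, column 2 only arrays with it, and column 3 held Triple stimuli + Rapamycin and High FFAs. The part of brightness and of slide column in the differences below was not tested.

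**Figure D1:**
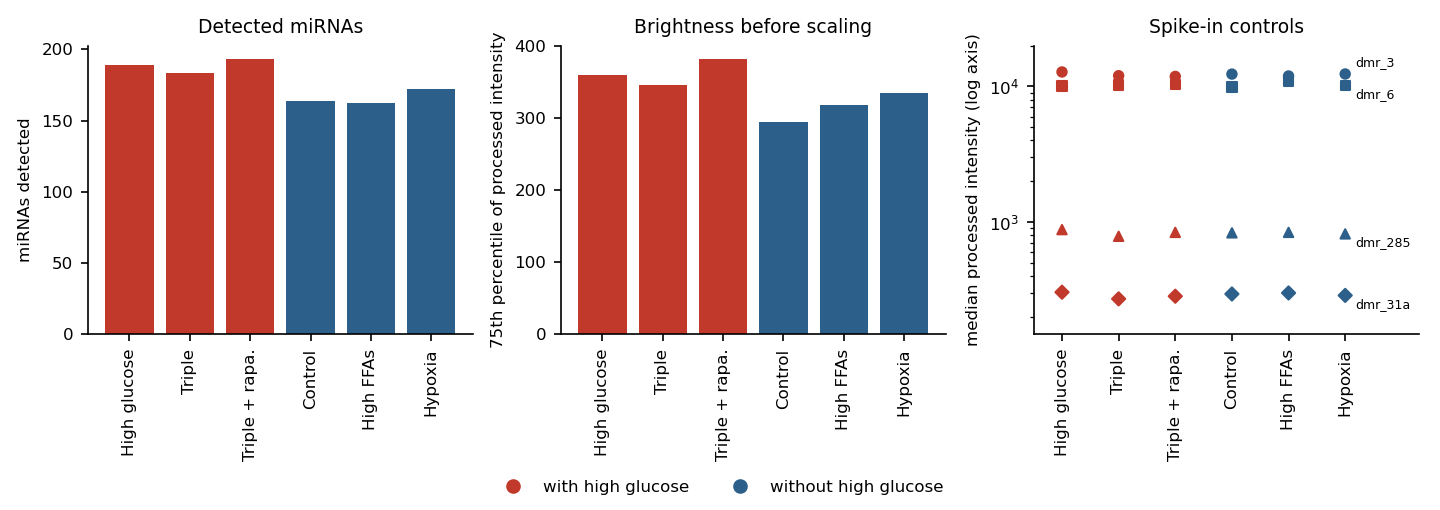
Bars give the number of detected miRNAs (left) and the 75th percentile of processed intensity before scaling (middle) for each array, and points give the median intensity of 4 spike-in controls on a log axis (right). The arrays with high glucose (red) had 183 to 193 detected miRNAs and those without (blue) 162 to 172, while the spike-in ratios were 0.973 to 1.006.

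Markers of other cell types were mostly below detection, and so was an epithelial group. The markers of blood (6), of endothelium (2) and of fibroblasts and smooth muscle (5) were not detected on any array. Among 6 markers of muscle, neurons and hepatocytes, miR-206-3p was detected, with a log2 difference of -0.08 and an adjusted p of 0.735. Of 11 kidney epithelial markers, 7 were detected and tested, and all 7 belonged to the miR-10 or miR-30 families. The rest of these markers were not detected on any array. miR-192, named above for proximal tubule, was not among the miRNAs tested. The miR-200 family, 5 miRNAs that mark epithelial cells in general, was not detected on any array of this epithelial line.

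Across the 154 miRNAs tested, limma called 15 at an adjusted p under 0.05 (9.74%), 13 of them higher with high glucose (8.44%) and 2 lower (1.3%). Without adjustment, 30 miRNAs were under 0.05. With the High glucose and High FFAs labels exchanged the same fit called none, 5 were under 0.05 unadjusted, and the lowest adjusted p was 0.813. With both of those arrays left out (Triple stimuli and Triple stimuli + Rapamycin against Control and Hypoxia), 15 were called higher and 0 lower, 23 were under 0.05 unadjusted, and 11 of the 15 were among the 13. In that fit high glucose and palmitate were present on the same arrays and cannot be told apart. A difference of at least 1.5-fold upward was seen for 10 miRNAs (6.49%) and downward for none.

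**Figure D2:**
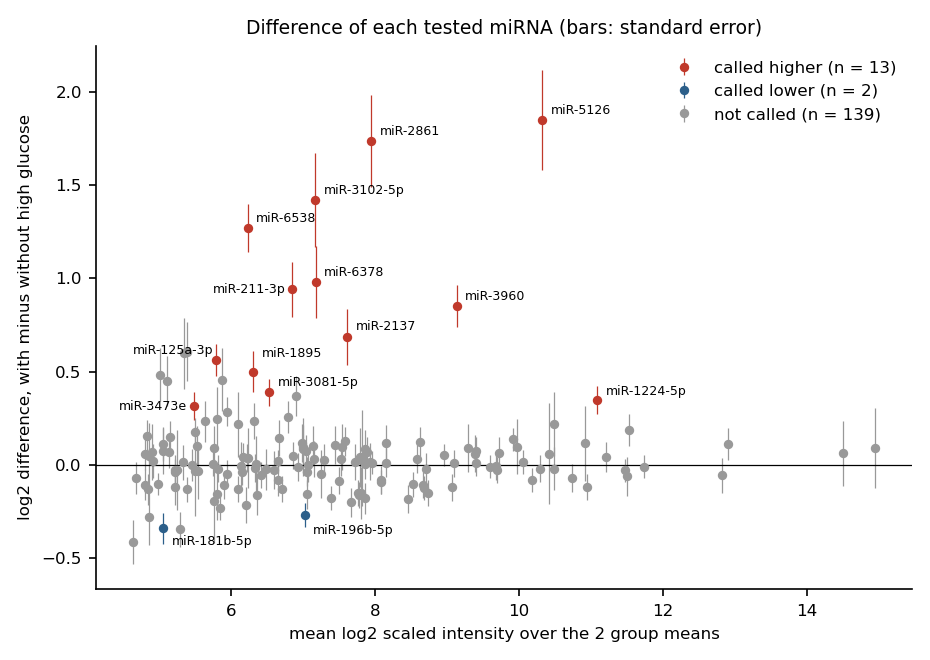
Each point is a tested miRNA, placed by its mean log2 scaled intensity and by the log2 difference of arrays with minus without high glucose, with bars for the standard error. The 13 miRNAs called higher (red) reach 1.85 on the log2 scale, and the 2 called lower (blue) lie at -0.34 and -0.27.

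The highest difference was that of miR-5126, encoded on chromosome 1 within the span of Dner (mature sequence at chr1:84695890-84695911, GRCm38.p6, plus strand). Its scaled intensity was 3566 on High glucose, 1615 on Triple stimuli and 2501 on Triple stimuli + Rapamycin, against 616 on Control, 641 on High FFAs and 782 on Hypoxia. Every array with high glucose was thus brighter than every array without, and the High glucose and Triple stimuli arrays differed more from each other than the 3 arrays without high glucose did. The mean log2 intensity was 11.25 ± 0.57 with high glucose and 9.40 ± 0.18 without (SD, n = 3 each), a 3.60-fold difference (log2 1.85, SE 0.27, adjusted p = 0.0085). In column 3 of the slide the values were 2501 on Triple stimuli + Rapamycin and 641 on High FFAs. With both doubtful arrays left out the log2 difference was 1.53 (adjusted p = 0.0157), and with their labels exchanged it was 0.20 (adjusted p = 0.977).

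miR-2861 and miR-3960 come from adjacent hairpins on the minus strand of chromosome 2 (chr2:32712807-32712888 and chr2:32712900-32712972), and both are known in mouse as regulators of osteoblast differentiation. For miR-2861 the scaled intensity was 633 on High glucose, 306 on Triple stimuli and 468 on Triple stimuli + Rapamycin, against 123 on Control, 130 on High FFAs and 153 on Hypoxia. Its group means were 8.81 ± 0.53 with high glucose and 7.08 ± 0.16 without (log2, SD, n = 3 each), 3.33-fold apart (log2 1.73, SE 0.25, adjusted p = 0.0085). For miR-3960, the intensity was 841, 656 and 776 on High glucose, Triple stimuli and Triple stimuli + Rapamycin, against 407, 460 and 388 on Control, High FFAs and Hypoxia. This neighbour of miR-2861 was 1.81-fold higher (log2 0.85, SE 0.11, adjusted p = 0.0085), without overlap of the sides. The differences with both doubtful arrays left out were 1.46 for miR-2861 and 0.84 for miR-3960 (adjusted p = 0.0157 for each), and with the labels exchanged 0.21 and 0.27 (adjusted p = 0.977 and 0.938).

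miR-3102-5p, from a hairpin on chromosome 7 (mature sequence at chr7:100882388-100882409, minus strand), had scaled intensities of 338 on High glucose, 167 on Triple stimuli and 230 on Triple stimuli + Rapamycin. The arrays without high glucose gave 77.9 (Control), 81.8 (High FFAs) and 106 (Hypoxia). The sides did not overlap and lay 2.68-fold apart (log2 1.42, SE 0.25, adjusted p = 0.017). miR-6538, within the span of Rnf144a on chromosome 12, had 133, 95.0 and 126 on High glucose, Triple stimuli and Triple stimuli + Rapamycin, and 48.6, 49.3 and 47.3 on Control, High FFAs and Hypoxia. Its 3 values without high glucose were the closest together of the 4 miRNAs with the highest differences (SD 0.03 on the log2 scale, against 0.26 with high glucose), and the difference was 2.41-fold (log2 1.27, SE 0.13, adjusted p = 0.0033). miR-6538 was called higher in all 6 fits that left out 1 array, and miR-3102-5p in 4 of the 6. With both doubtful arrays left out the log2 differences were 1.11 for miR-3102-5p and 1.19 for miR-6538 (adjusted p = 0.0304 and 0.0157). With the labels exchanged they were 0.05 and 0.31 (adjusted p = 0.977 for each).

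A further 3 miRNAs had differences between 1.6-fold and 2-fold. miR-6378, from a hairpin on chromosome 3, had 282, 164 and 180 on High glucose, Triple stimuli and Triple stimuli + Rapamycin, and 105, 106 and 97.3 on Control, High FFAs and Hypoxia (1.97-fold, log2 0.98, SE 0.19, adjusted p = 0.0245). miR-211-3p is a product of the hairpin within Trpm1, whose other arm, miR-211-5p, is known from melanocytes. It had 197, 132 and 155 on High glucose, Triple stimuli and Triple stimuli + Rapamycin, and 79.3, 90.3 and 79.6 on Control, High FFAs and Hypoxia (1.92-fold, log2 0.94, SE 0.15, adjusted p = 0.0091). The other arm, miR-211-5p, was not detected on any array. miR-2137, within the span of Zfp185 on the X chromosome, had 294, 207 and 252 on High glucose, Triple stimuli and Triple stimuli + Rapamycin, and 155, 176 and 134 on Control, High FFAs and Hypoxia (1.61-fold, log2 0.69, SE 0.15, adjusted p = 0.0335). Leaving out 1 array kept the call in 3 of 6 fits for miR-6378, 3 of 6 for miR-211-3p and 2 of 6 for miR-2137. miR-6378 lost its call with the mean of all probes (log2 0.39, adjusted p = 0.103) and with quantile normalization (adjusted p = 0.0584), and its second probe was not detected on any array. For miR-2137 the adjusted p was 0.0606 with scaling to the median, 0.0729 with quantile normalization and 0.0606 with palmitate as a covariate. With both doubtful arrays left out, miR-6378, miR-211-3p and miR-2137 had log2 differences of 0.76, 0.85 and 0.66 (adjusted p = 0.0157, 0.0157 and 0.0393), and with the labels exchanged 0.04, 0.19 and 0.20 (adjusted p = 0.977 for each).

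**Figure D3:**
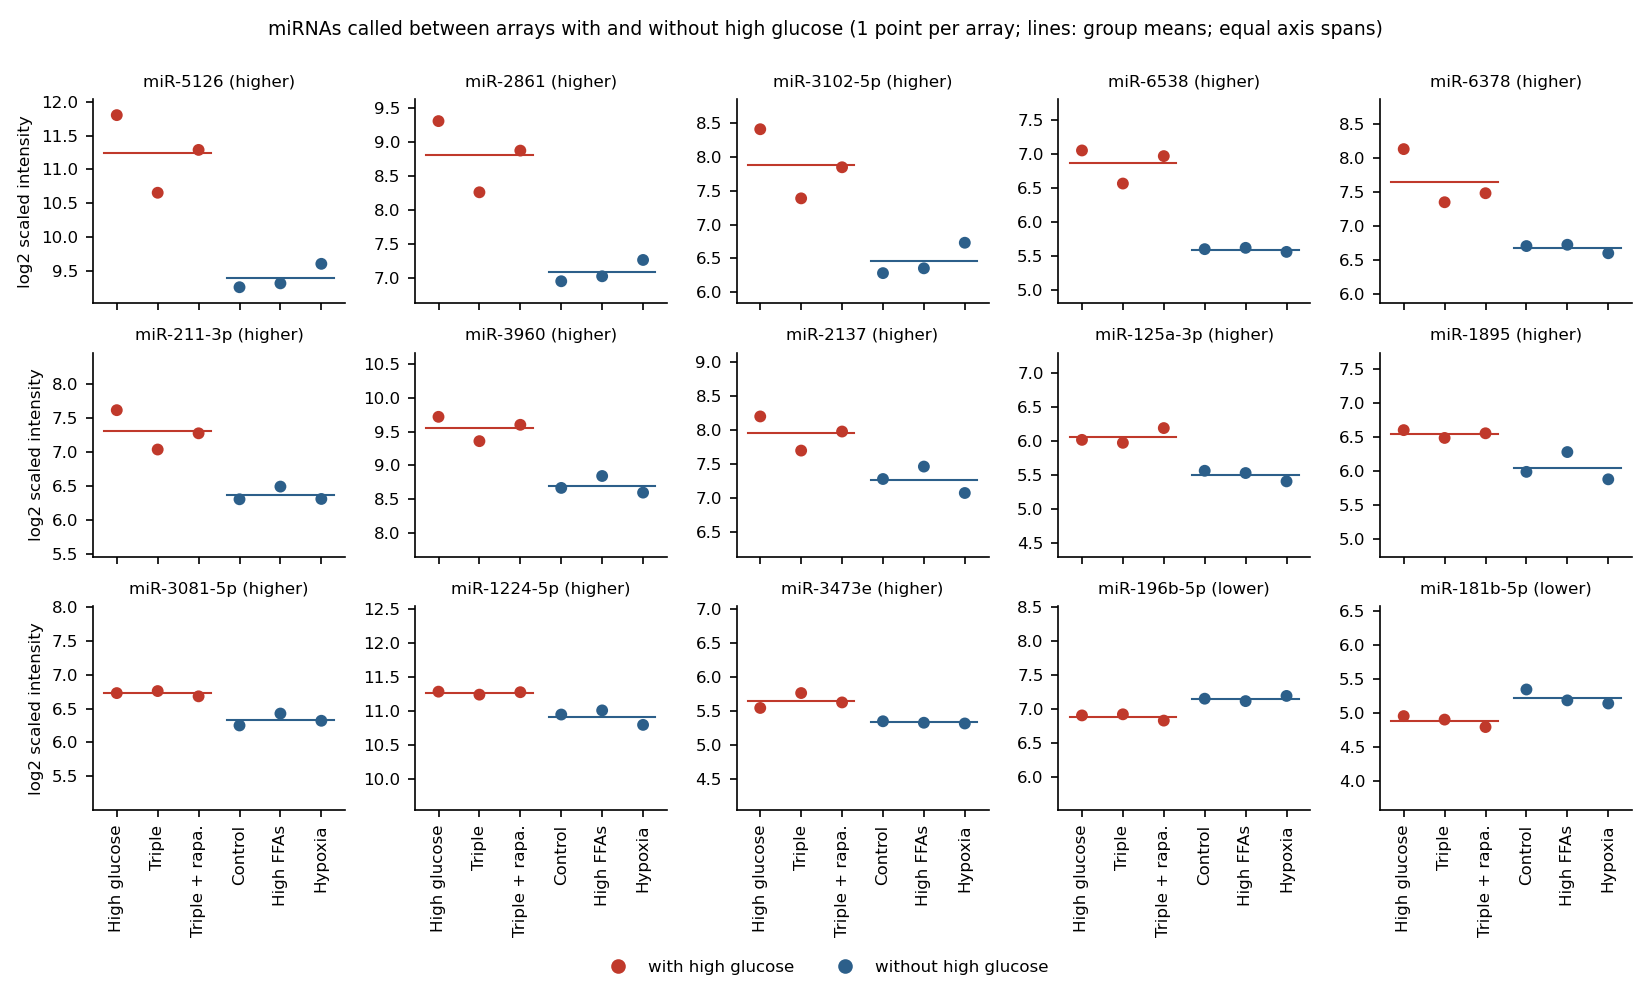
Each panel shows a called miRNA, with the log2 scaled intensity of the 3 arrays with high glucose (red, left) and the 3 without (blue, right), and a line at each group mean. All vertical axes span the same range; the sides do not overlap in any of the 15 panels, and the points of the arrays with high glucose are most spread for miR-5126, miR-2861 and miR-3102-5p.

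The other 5 miRNAs called higher differed by less than 1.5-fold. miR-125a-3p is the partner strand of miR-125a-5p, a member of the miR-125 family and relative of lin-4. It had 64.9, 63.0 and 73.2 on High glucose, Triple stimuli and Triple stimuli + Rapamycin, and 47.4, 46.3 and 42.5 on Control, High FFAs and Hypoxia (1.48-fold, log2 0.56, SE 0.08, adjusted p = 0.0085). miR-1224-5p, a mirtron product whose hairpin lies within Vwa5b2, was among the brighter miRNAs called. Its intensities were 2486, 2412 and 2474 on High glucose, Triple stimuli and Triple stimuli + Rapamycin, and 1969, 2054 and 1772 on Control, High FFAs and Hypoxia (1.27-fold, log2 0.35, SE 0.08, adjusted p = 0.0335). miR-1895 (within Cxxc4), miR-3081-5p (within Boc) and miR-3473e (within Rbks) had log2 differences of 0.50, 0.39 and 0.31, with adjusted p of 0.0335, 0.0177 and 0.0448. These 3 dim miRNAs lay between 46.6 and 108 with high glucose and between 39.7 and 86.0 without. The calls of these small differences depended on single arrays and on the processing. With 1 array left out, miR-125a-3p was called in 5 of 6 fits, and miR-1224-5p, miR-1895, miR-3081-5p and miR-3473e in 1 of 6 each. Over the 8 other ways of scaling, background correction and summary, 5 called miR-125a-3p, 4 called miR-1224-5p, 4 called miR-1895, 4 called miR-3081-5p and 2 called miR-3473e. Quantile normalization gave 0.13 for miR-1224-5p (adjusted p = 0.289) and 0.07 for miR-3473e (adjusted p = 0.596), and the second probe of miR-3473e was not detected on any array. With both doubtful arrays left out, miR-125a-3p (0.60, adjusted p = 0.0366), miR-1895 (0.59, 0.0193) and miR-3081-5p (0.43, 0.0487) were called, while miR-1224-5p (0.39, 0.0979) and miR-3473e (0.36, 0.112) were not. With the labels exchanged, these 5 had differences of 0.17 to 0.28 (adjusted p = 0.909 for each).

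The miRNAs called higher were rich in G and C bases. In the printed sequences, miR-5126 consists of G and C alone, and miR-2861 and miR-6538 each hold 94.7% G and C. A mature sequence was found for 128 of the 154 tested miRNAs (83.1%). The part of RefSeq searched did not cover all chromosomes. Yet miR-3960 and miR-6378, which had no sequence, lie on chromosomes 2 and 3, where other called miRNAs had one. The median share of G and C was 72.7% in the 11 called higher that had a sequence, with a range of 59.1% to 100%, and 47.6% in the 115 not called. Among the 33 tested miRNAs with at least 60% G and C, 10 were called higher, and the median log2 difference was 0.15. Of 51 with 45% to 60%, 1 was called higher and 2 lower (median -0.01), and of 44 under 45% none was called (median -0.01). The median thus did not rise from the lowest to the middle range. Over the 128 miRNAs, those called included, the difference and the share of G and C had Pearson's r = 0.63 and Spearman's rho = 0.32. No value without those called was computed. These points share the same 6 arrays and 1 scaling, and miRNAs are not independent replicates.

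**Figure D4:**
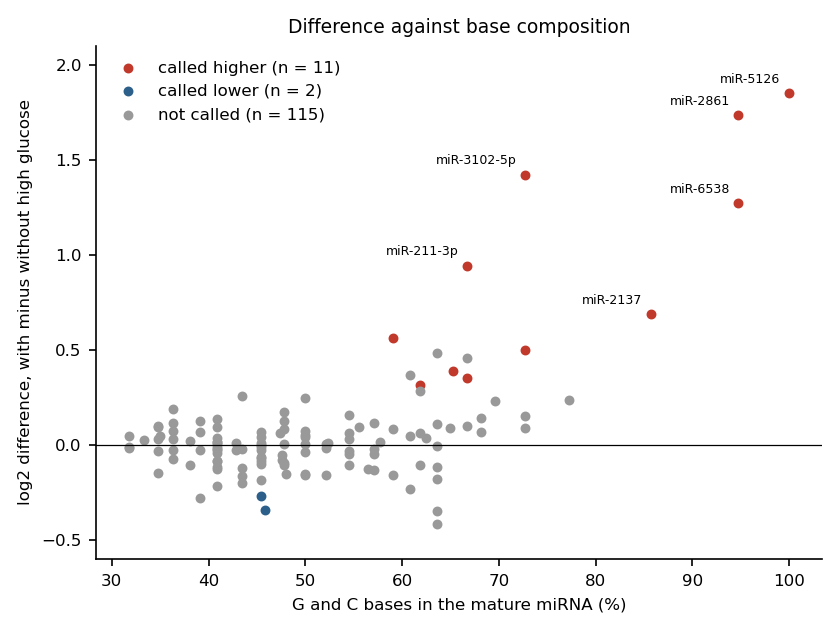
Each point is a tested miRNA with a RefSeq mature sequence (n = 128), placed by its share of G and C bases and by its log2 difference, with minus without high glucose. The 11 called higher (red) lie at 59.1% or more, while miRNAs not called (grey) are found at high shares too.

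Over the same miRNAs, those called included, r was 0.60 for the differences at 20% oxygen and 0.62 at 1% (Spearman's rho 0.27 and 0.36). A run of 4 G bases (GGGG, searched on the miRNA strand only) was present in 6 of the 11 miRNAs called higher, namely miR-5126, miR-2861, miR-3102-5p, miR-6538, miR-211-3p and miR-1224-5p. It was present in 10 of the 115 not called and in 12.5% of those tested that had a sequence. It was present in 11.2% of the 1679 mature miRNAs searched, a part of the RefSeq table that did not cover all chromosomes. A high share of G and C did not by itself go with a call, since 23 of the 33 miRNAs at or above 60% were not called, and miR-99b-3p at 63.6% had the lowest difference of all tested.

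Probes against such miRNAs are short on this platform, where probe length is adjusted to even out melting. The probes of the 13 miRNAs called higher had 9 to 16 bases with a median of 13, against a median of 17 in those not called, and a median of 72.7% G and C against 50%. The probe used for miR-5126 was the 10-base ccccgccccc, and that for miR-2861 the 9-base ccgcccgcc. Neither probe's complement occurred in full in another mature sequence searched. Partial matches were not looked for, and the sequences covered 128 of the 154 tested miRNAs, without miR-3960 and miR-6378. The search therefore does not show that the probes are specific. Of the 17 other probes of the 15 called miRNAs, 13 were detected on all 6 arrays, and all 13 had a difference in the called direction. For the miRNAs called higher these ran from 0.24 to 1.88 on the log2 scale. Over all 17, 15 had the called direction. The second probes of miR-6378 and miR-3473e, not detected on any array, stood at -0.20 each. Each other probe is a shorter or longer form of the probe used and reads the same end of the miRNA on the same arrays. Their shared direction is therefore not independent support for the calls. The part of probe length and of base composition in the differences was not tested.

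Only 2 miRNAs were called lower, and both changes were small. miR-181b-5p, a member of the miR-181 family made from hairpins on chromosomes 1 and 2, had 31.0, 29.9 and 27.7 on High glucose, Triple stimuli and Triple stimuli + Rapamycin, and 40.7, 36.4 and 35.2 on Control, High FFAs and Hypoxia. The sides did not overlap, and the log2 difference was -0.34 (SE 0.08, adjusted p = 0.0448). The second probe of miR-181b-5p was not detected on any array. miR-196b-5p, encoded in the Hoxa region of chromosome 6 and known to target Hox messenger RNAs, had 120, 122 and 114 on High glucose, Triple stimuli and Triple stimuli + Rapamycin, and 143, 139 and 147 on Control, High FFAs and Hypoxia. Its log2 difference was -0.27 (SE 0.06, adjusted p = 0.0448). Neither miRNA was called in any fit that left out 1 array. With both doubtful arrays left out the differences were -0.40 and -0.30 (adjusted p = 0.129 and 0.177), and with the labels exchanged -0.19 and -0.13 (adjusted p = 0.909 for each).

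Nearest to the threshold on its outer side were miR-1897-5p (log2 0.61, adjusted p = 0.058), miR-615-3p (-0.35, 0.0659), miR-188-5p (0.29, 0.0659), miR-5128 (0.37, 0.079) and miR-99b-3p (-0.42, 0.079). miR-3096a-5p completed the highest 10 differences, with 43.4, 47.7 and 59.4 on High glucose, Triple stimuli and Triple stimuli + Rapamycin against 29.8, 43.1 and 27.5 on Control, High FFAs and Hypoxia (log2 0.60, SE 0.19, adjusted p = 0.102). In the lowest 10, beside those named, stood miR-301a-3p (-0.28), miR-149-5p (-0.23), miR-712-5p (-0.19) and the miR-30 members miR-30e-5p (-0.22), miR-30c-5p (-0.20) and miR-30a-5p (-0.18). miR-712-5p is derived from the ribosomal RNA precursor and not from a usual hairpin. None of these 6 passed the test, with adjusted p from 0.0800 for miR-149-5p to 0.789 for miR-712-5p. The sides did not overlap for 24 miRNAs in the higher direction (15.6%) and 21 in the lower (13.6%), so that most miRNAs without overlap were not called.

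The 2 arms of a hairpin did not always share a direction. For miR-125a the 3p arm was called higher, while the 5p arm had a log2 difference of -0.15 (adjusted p = 0.283). Its neighbours in the same cluster on chromosome 17 were miR-99b-5p (-0.18, adjusted p = 0.283), miR-99b-3p (-0.42, adjusted p = 0.079) and let-7e-5p (-0.01, adjusted p = 0.953). In miR-1897 the 5p arm stood at 0.61 and the 3p arm at -0.05 (adjusted p = 0.95). Both arms were tested for 11 hairpins, and miR-125a was the only 1 of these with a called arm. For miR-149, the 5p arm was detected on all 6 arrays with a difference of -0.23, and the 3p arm only on arrays with high glucose.

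Detection itself was uneven between the sides. Of 44 miRNAs detected on some arrays but not on all, 38 were detected on more arrays with high glucose, 1 on more arrays without and 5 on equal numbers. There were 16 miRNAs detected on 2 or 3 arrays with high glucose and on none without, 8 of them on all 3, and none with the opposite pattern. Their differences can only be given as bounds, computed against the lowest signal of a detected probe on each array or the miRNA's own signal there, whichever was higher. The same lower limit was applied to the arrays with high glucose. Where a miRNA fell under that limit there, its value was raised to it, and the figure is then not a strict bound. miR-149-3p gave 79.7, 47.3 and 63.7 on High glucose, Triple stimuli and Triple stimuli + Rapamycin, and it was not well above background at 20.1, 16.9 and 20.4 on Control, High FFAs and Hypoxia, at least 2.74-fold higher. miR-680 was at least 2.13-fold higher, with 72.0, 33.6 and 46.5 on the same 3 arrays with high glucose. For miR-721 the bound was at least 1.91-fold, and for miR-290-5p, from a cluster known from mouse embryonic stem cells, at least 1.83-fold. miR-3077-5p (at least 1.23-fold), miR-1249-3p (1.22-fold), miR-5131 (1.19-fold) and miR-3102-5p.2-5p (1.07-fold) had bounds near 1. The figures for miR-6392-3p (1.10-fold) and miR-328-5p (1.09-fold), each detected on 2 arrays with high glucose, are not strict bounds. miR-6392-3p was raised from 17.3 to 20.7 on High glucose, and miR-328-5p from 18.8 to 21.7 on Triple stimuli. Of the 16, 12 had a figure of at least 1, counting those that are not strict bounds. For the other 4 (miR-674-3p, miR-29b-1-5p, miR-669p-3p and miR-5119) the figure lay under 1 and gives no fold in either direction. Array brightness moved with these bounds, as given above, and its part was not tested.

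The differences at 20% and at 1% oxygen share no array and can be set beside each other. At 20% oxygen the High glucose array stood against Control and High FFAs, and at 1% oxygen both Triple arrays stood against Hypoxia, with palmitate and high glucose together. The value at 1% oxygen uses neither of the arrays whose labels are in doubt. The 13 miRNAs called higher had a positive difference at both levels, which their choice by the pooled fit largely fixes. miR-5126 was 5.68-fold higher at 20% oxygen and 2.57-fold higher at 1%, and miR-2861 was 5.00-fold and 2.47-fold higher. For miR-3102-5p the folds were 4.24 at 20% oxygen and 1.84 at 1%, whereas miR-6538 (2.72 and 2.31) and miR-3960 (1.94 and 1.84) lay closer together. A difference of at least 1.5-fold upward was seen for 10 miRNAs at 20% oxygen and 15 at 1%, and 8 were in both sets (80.0% of the 10 and 53.3% of the 15). None was 1.5-fold lower at either level.

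**Figure D5:**
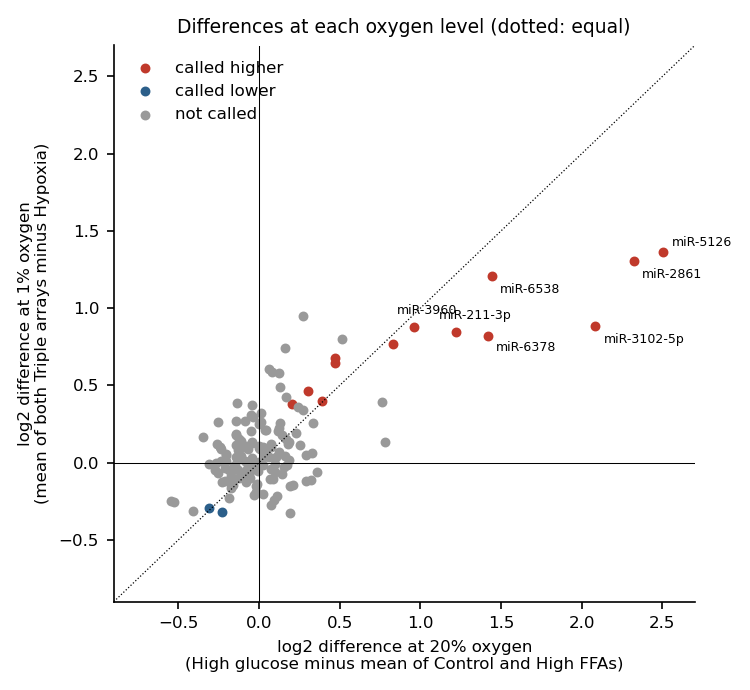
Each point is a tested miRNA, placed by its log2 difference with minus without high glucose at 20% oxygen (horizontal) and at 1% oxygen (vertical), with a dotted line at equality. miR-5126, miR-2861 and miR-3102-5p lie right of the line, at 2.51, 2.32 and 2.08 at 20% oxygen, while most other miRNAs cluster near 0.

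Over all 154 miRNAs the differences at the oxygen levels had Pearson's r = 0.75 and Spearman's rho = 0.44, and 98 had the same sign (63.6%). Without the 13 miRNAs called higher, r was 0.37 and rho 0.28 over 141. These points share the scaling and the probes. The interaction of high glucose with oxygen, which tests the difference between the levels with 2 residual degrees of freedom, called no miRNA by limma (lowest adjusted p = 0.591; 10 under 0.05 unadjusted). Among the 13 called higher, the High glucose array was the brightest of its side for 10 and the Triple stimuli array the dimmest for 11. The Triple stimuli + Rapamycin array was the brightest for 1 and the dimmest for 1.

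miR-210-3p, the miRNA best known to be induced by low oxygen, followed the oxygen labels. Its scaled intensity was 24.1 on High glucose, 219 on Triple stimuli and 206 on Triple stimuli + Rapamycin, against 24.7 on Control, 21.2 on High FFAs and 260 on Hypoxia. It was detected on High glucose and on the 3 arrays at 1% oxygen and was not well above background on Control and High FFAs, so it was not tested. miR-21a-5p, which is abundant in injured and fibrotic kidney, had 3251, 3306 and 2914 on High glucose, Triple stimuli and Triple stimuli + Rapamycin, and 2728, 2588 and 2998 on Control, High FFAs and Hypoxia. Triple stimuli + Rapamycin lay below Hypoxia, so the sides overlapped (log2 0.19, SE 0.09, adjusted p = 0.272).

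miRNAs linked to diabetic kidney and high glucose were not among those called. Of 30 on that list, 13 were tested and none was called (background 9.74%), with a median log2 difference of 0.01 against 0.02 over all 154. The highest was miR-21a-5p (0.19) and the lowest miR-23b-3p (-0.18, adjusted p = 0.156). In the miR-29 family, whose members repress collagen messenger RNAs, miR-29a-3p was highest at 0.14 and miR-29b-3p lowest at -0.15, and none of 3 was called. For glucose and lipid metabolism 6 were tested and none called, from miR-7a-5p (0.10) to miR-103-3p (-0.11). Of miRNAs that target mTOR, 5 were tested, from miR-7a-5p (0.10) to miR-99b-5p (-0.18), and none was called.

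Of the 7 tested kidney epithelial markers none was called, and 1 had a positive difference. Their median was -0.16, from miR-30b-5p (0.02) to miR-30e-5p (-0.22), and it was 0.04 without scaling and 0.05 with spike-in scaling. In the low-oxygen list 11 were tested and 1, miR-181b-5p, was called lower, a share of 9.09% beside 9.74% of all tested (median -0.08; 0.11 without scaling). None was called of 9 let-7 members (miR-98-5p at 0.05 to let-7c-5p at -0.12), of 10 in the miR-17/92 family (miR-17-5p at 0.17 to miR-19a-3p at -0.03) or of 5 linked to p53 and apoptosis (miR-34a-5p at 0.05 to miR-107-3p at -0.09). Likewise none was called of 4 linked to inflammation (miR-125b-5p at 0.04 to miR-125a-5p at -0.15) or of 3 from the ribosomal precursor (miR-5105 at 0.06 to miR-712-5p at -0.19). The lists up to this point held at most 13 tested members each. At that size, no call is not far from the 9.74% called over all tested.

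Most of the called miRNAs were ones with high registry numbers, which were named late and mostly from sequencing. Among 46 tested miRNAs numbered 1000 or above, 11 were called higher (23.9%, against 8.44% of all tested) and none lower. Their median difference was 0.11, from miR-5126 (1.85) to miR-6243 (-0.06), and 39 of the 46 were positive. Over all 154 tested miRNAs, ranked by difference, the values were positive down to rank 88. With scaling to the median of each array, the median of this list became -0.06, while that of all miRNAs became -0.15. The exceptions among the 13 called higher were miR-211-3p and miR-125a-3p. This grouping was chosen with the differences already known.

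The call depended on how the arrays were scaled, and the direction of small differences did too. The median over all 154 miRNAs was 0.02 with the scaling used, 0.22 without scaling, 0.23 with spike-in scaling and -0.15 with scaling to the median. No scaling gave 48 higher and 0 lower, spike-in scaling 54 and 0, scaling to the median 8 and 31, and quantile normalization 6 and 19. miR-5126, miR-2861, miR-3102-5p, miR-6538, miR-211-3p and miR-3960 were called higher under each of the 8 other ways of scaling, background correction and summary that were run. Without the Triple stimuli + Rapamycin array 1 miRNA was called higher, miR-6538, and without Control or Hypoxia the counts were 5 and 6.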

How the data were processed

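Agilent 1-colour miRNA arrays of mProx24 cells, 1 per condition, were labelled from 100 ng RNA; spots were read by Agilent Feature Extraction 10.7.3.1, per the submitters' processing notes. Per the file headers, the deposited spot intensity values are background-subtracted and linear, and are not normalized between arrays. The authors' deposited value table holds a linear signal per miRNA, equal within 0.1% to the software's summed signal divided by 1 factor per array for most miRNAs. The sources used here do not state how that factor was chosen.

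A probe's value was its mean processed intensity over spots without an outlier flag (median 20 spots per probe on the design). Arrays were scaled to their 75th percentile over the 281 of 3105 probes detected on all 6 arrays, floored at the lowest detected signal and log2-transformed. Detection of a probe required the software's above-background flag on a share of 0.5 or more of the spots, and detection of a miRNA required 1 detected probe out of its 1 to 4. Each miRNA took the value of its brightest probe. Intensities in the text are these scaled values, and no spot was saturated (0 on every array). The sides were compared with limma 3.58.1 in R 4.3.3 (lmFit and eBayes, two-sided, Benjamini-Hochberg over 154 miRNAs, threshold 0.05). The fit was also run on simulated arrays with independent noise. Those held no unlike treatments within a side, so they do not check the test for this design. The number of arrays limits the precision, and p-values measure the spread between unlike treatments. Single values per array were tested by exact permutation.

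Gene names, hairpin places and mature sequences came from RefSeq (GRCm38.p6), through miRNA names; the spans of surrounding genes were read without regard to strand. The names miR-126a and miR-142a were matched to the older names miR-126 and miR-142 on the array. Named miRNAs were those called, the 10 highest and 10 lowest differences, up to 10 bounds, the ends of each of 17 lists, the 5 nearest outside the threshold, miR-21a-5p and miR-210-3p. The members, lists and tests were chosen with earlier results of these data known. Alternatives covered scaling, background, probe summary, detection, the prior, covariates, left-out arrays, exchanged labels and the value table; spike-in scaling and leaving out both doubtful arrays were chosen after seeing the data.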

Additional observations from a re-analysis of the deposited data

Results flagged for a closer look

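Of the 48 named miRNAs searched, 5 had opposite orders of the sides at 20% and at 1% oxygen, without overlap at either level. Only the miRNAs named were searched, so no share over the 154 tested is given. Others showed the same order, among them miR-25-3p (-0.045 at 20%, 0.13 at 1%) and miR-93-5p (-0.095 and 0.10). The order is therefore not particular to the 5. With high glucose the 5 named miRNAs were lower at 20% oxygen and higher at 1%. The log2 difference at 1% oxygen exceeded that at 20% by 0.25 for miR-125b-5p (0.14 at 1%, -0.11 at 20%) and by 0.35 for miR-5105 (0.27 at 1%, -0.084 at 20%). For miR-6243 the gap was 0.34 (0.099 at 1%, -0.24 at 20%). For let-7e-5p it was 0.26 (0.12 at 1%, -0.14 at 20%), and for miR-1897-3p 0.51 (0.16 at 1%, -0.35 at 20%). None passed limma's test of the interaction (adjusted p = 0.591 for each), and each level holds 3 arrays, so the order of single arrays decides this pattern. The value at 20% oxygen rests on both arrays with doubtful labels.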

How the results depend on the processing

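Against 13 higher and 2 lower miRNAs, scaling over all probes called 8 higher and 3 lower, scaling to the median 8 and 31, no scaling 48 and 0, quantile normalization 6 and 19, and spike-in scaling 54 and 0. Without a detection filter the fit over 1247 miRNAs called 22 higher and 1 lower, and values at the floor give it many miRNAs with no spread. Detection by all spots called 10 higher and 21 lower, normexp background 9 and 0, and the mean of all probes 12 and 1. Kept flagged spots and the trended robust prior gave 12 and 0 each, and miRNAs detected on at least 1 array 15 and 0. Oxygen (slide row) as a block gave 13 and 0, palmitate as a covariate 11 and 1, oxygen and palmitate 17 and 1, and all 3 covariates 14 and 0. Leaving out 1 array gave 1 to 15 higher and 0 to 2 lower: 1 higher without Triple stimuli + Rapamycin, 5 without Control and 6 without Hypoxia. Leaving out both arrays with doubtful labels gave 15 and 0. Exchanging their labels gave 0 and 0, and the value table under its own labels 0 and 0 (10 of 195 under 0.05 unadjusted); with its columns matched to the scanner files it gave 11 and 24. The interaction with oxygen called 0 under each scaling run (10 unadjusted, 9 without scaling and 23 with quantile normalization). The difference in the number detected stayed positive, at 22.3, 18.3 by all spots and 13 by the software's own call. The count of miRNAs detected on high glucose arrays alone was 10 by all spots, against 16, and that of bounds over 1.5-fold 1, against 4.

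Many differences near 0 turned their sign, up to 68 of 154 miRNAs in 1 alternative (labels exchanged). None of the called miRNAs did. A turned sign came with a call for 2 miRNAs, under quantile normalization: miR-30b-5p, named above, and miR-99a-5p, chosen here after its values were seen (0.0068 in the fit reported, -0.20 there, adjusted p = 0.0449). The turned log2 differences of the named miRNAs were as follows. Without scaling the values were miR-30a-5p 0.013, miR-712-5p 0.0039, miR-206-3p 0.12, miR-23b-3p 0.018, miR-103-3p 0.093, miR-99b-5p 0.018, let-7c-5p 0.080, miR-29b-3p 0.049, miR-19a-3p 0.17, miR-107-3p 0.11, miR-125a-5p 0.047, miR-6243 0.14, let-7e-5p 0.19 and miR-1897-3p 0.15. With spike-in scaling the values were miR-30a-5p 0.026, miR-712-5p 0.017, miR-30c-5p 0.010, miR-206-3p 0.13, miR-23b-3p 0.031, miR-103-3p 0.11, miR-99b-5p 0.030, let-7c-5p 0.092, miR-29b-3p 0.062, miR-19a-3p 0.18, miR-107-3p 0.12, miR-125a-5p 0.060, miR-6243 0.16, let-7e-5p 0.20 and miR-1897-3p 0.16. With all 3 covariates the values were miR-712-5p 0.088, miR-125b-5p -0.016, miR-29b-3p 0.025 and miR-19a-3p 0.026. In the value table under its own labels the values were miR-712-5p 0.073, miR-301a-3p 0.065, miR-21a-5p -0.065, miR-98-5p -0.030, miR-29a-3p -0.011, miR-17-5p -0.063, miR-30b-5p -0.033, miR-34a-5p -0.052, miR-19a-3p 0.029, miR-6243 0.086, let-7e-5p 0.053 and miR-1897-3p 0.19. With labels exchanged the values were miR-301a-3p 0.093, miR-615-3p 0.027, miR-21a-5p -0.031, miR-98-5p -0.041, miR-17-5p -0.034, miR-30b-5p -0.018, miR-34a-5p -0.0052, miR-206-3p 0.044, miR-99b-5p 0.017, miR-19a-3p 0.069, miR-125a-5p 0.022, miR-6243 0.11, let-7e-5p 0.094 and miR-1897-3p 0.22. With scaling over all probes the values were miR-7a-5p -0.00300, miR-98-5p -0.056, miR-30b-5p -0.087, miR-34a-5p -0.052, miR-125b-5p -0.063 and miR-5105 -0.044. With scaling to the median the values were miR-7a-5p -0.064, miR-98-5p -0.12, miR-29a-3p -0.030, miR-30b-5p -0.15, miR-34a-5p -0.11, miR-125b-5p -0.12 and miR-5105 -0.11. With quantile normalization the values were miR-7a-5p -0.014, miR-98-5p -0.056, miR-29a-3p -0.064, miR-17-5p -0.070, miR-30b-5p -0.13, miR-34a-5p -0.15, miR-125b-5p -0.12 and miR-5105 -0.011. With detection by all spots the values were miR-7a-5p -0.043, miR-98-5p -0.095, miR-29a-3p -0.0084, miR-30b-5p -0.13, miR-34a-5p -0.092, miR-125b-5p -0.10 and miR-5105 -0.084. In the value table with columns matched the values were miR-7a-5p -0.055, miR-98-5p -0.12, miR-29a-3p -0.017, miR-30b-5p -0.15, miR-34a-5p -0.12, miR-125b-5p -0.14 and miR-5105 -0.072. With normexp background the values were miR-98-5p -0.0042, miR-17-5p -0.00828, miR-30b-5p -0.036 and let-7e-5p 0.011. With the mean of all probes the values were miR-17-5p -0.012, miR-30b-5p -0.000499 and miR-19a-3p 0.0045. With oxygen and palmitate as covariates the value was miR-125b-5p -0.014. With both doubtful arrays left out the values were miR-19a-3p 0.029, miR-6243 0.044, let-7e-5p 0.064 and miR-1897-3p 0.12. Over the left-out arrays the values ran as follows, with a turned sign among them, for miR-712-5p -0.35 to 0.050, miR-30b-5p -0.0063 to 0.038, miR-5105 -0.029 to 0.12, miR-29b-3p -0.25 to 0.018, miR-19a-3p -0.20 to 0.094, miR-6243 -0.14 to 0.017, let-7e-5p -0.047 to 0.039 and miR-1897-3p -0.18 to 0.078. The cause was not tested. No paired analysis was possible because the labels number no replicates. Signal over background limits the miRNAs not detected on every array, which have bounds or no value, and the number of arrays limits all differences.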
